A study of Sus scrofa with 14 samples.

Results

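Of 19588 porcine genes measured by RNAseq, 40 were on in every group of cells grown in medium F and close to off in every group grown in the media FLB2i and FL6i. The 40 genes were those with a mean normalized count of at least 40 in each of the 3 groups in F and below 15 in each of the 4 groups in FLB2i or FL6i, where the normalized count is the number of reads on a gene divided by 1 size factor for the sample. They make up 0.204% of the genes, and 38 of them could be given a gene symbol. Because measured levels chose the genes, the contrast between F and the other media is described for them and not tested. FGF2 is present in all 3 media, so the genes are named here after medium F and not after FGF2.

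The series compares embryonic stem cell-like and induced pluripotent porcine cells derived in different combinations of cytokines and kinase inhibitors, with 7 groups of 2 samples and 14 RNA libraries in all. F stands for primed-type medium with FGF2 and was not 1 formula. The methods describe the maintenance medium F as human embryonic stem cell medium with serum replacement, and the medium in which blastocysts were plated as a different base with fetal bovine serum and its own dose of FGF2, so that between the embryo-derived and the lentiviral F groups the origin of the cells and the base medium cannot be told apart. FLB2i and FL6i are both built on a basal medium with serum replacement, insulin and IGF1. To it FLB2i adds FGF2, LIF, BMP4, a GSK3A inhibitor and the TGFB1 inhibitor A83-01, and FL6i adds FGF2, LIF and inhibitors of p38, JNK, BMP, GSK3A, ERK1/2 and TGFB1. The pESCLC-primary samples were outgrowths of porcine blastocysts, kept in F. The methods describe outgrowths from intact blastocysts and from isolated inner cell mass, and the paper does not say which kind was sequenced. The pESCLC-F samples were embryonic stem cell-like lines A1 and A2 grown on from outgrowths in F, both at passage 2. The embryo-derived cells in inhibitor medium had started in F, were transferred to FL6i on day 8 and, for pESCLC-FLB2i, were transferred again on day 18. Each of these groups is 1 line at different passages, B1 at passages 3 and 6 for pESCLC-FLB2i and C2 at passages 3 and 9 for pESCLC-FL6i. Lv-piPSC-F were induced pluripotent cells made with lentiviral vectors and grown in F, with ID6 in the titles of both samples and the further code M1690-A-3, passage 46, for the second. The paper names a single Lv-piPSC line, ID6, and describes the duplicates of its lines as differing in passage. What the further code stands for is not given in the sources used here. The spread of this group, its mean and its p-values may therefore still rest on different lines. Epi-piPSC-FLB2i, line B5 at passages 9 and 12, and Epi-piPSC-FL6i, lines C10 at passage 12 and C11 at passage 11, were made from fetal fibroblasts with episomal plasmids. All lines were grown on irradiated mouse embryonic fibroblasts. Among the induced lines each vector came with its own media, so that the effect of the vector and of the medium cannot be told apart, and only the embryo-derived lines were sampled in all 3 media. P-values measure the spread between 2 samples a group, which for some groups are passages of 1 line. The samples are bulk RNA, in which fewer cells of a type and less RNA per cell cannot be told apart.

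Reads on genes numbered 6193659 in the shallowest library and 58878377 in the deepest, and 1 read was worth between 0.348 and 2.62 normalized counts. Markers were checked against the labels. NANOG, a core pluripotency factor, held 287 and 178 normalized counts in pESCLC-primary, 239.7 and 343 in pESCLC-F and 418 and 847 in Lv-piPSC-F, and 0.965 to 36.9 in the 8 samples in FLB2i and FL6i. LIN28A, an RNA-binding protein of pluripotent cells, was at 32.3 and 0.985 in pESCLC-FLB2i, at 23.1 and 0 in pESCLC-FL6i and at 10047 and 11449 in Epi-piPSC-FL6i. NANOG was therefore low in the samples in both inhibitor media whatever their origin, and LIN28A was low in the embryo-derived ones. The episomal plasmids carried human LIN28, and the paper, which detected plasmid LIN28 in episomal lines, proposes that the plasmids persisted. Reads of the porcine gene and of the plasmid were not told apart here. The LIN28A level of Epi-piPSC-FL6i is therefore not a check of the porcine gene alone. POU5F1 and SOX2 were not analysed here.

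An epithelium moves solutes in 1 direction by placing different carriers on its apical and basolateral faces. Transporters of the solute carrier (SLC) families take up amino acids, nucleosides, vitamins and ions, and PDZ scaffold proteins tether them beneath the apical membrane. The V-ATPase pumps protons across membranes, desmosomes join the cells, and tight junctions seal the sheet. In the early embryo the first such epithelia are the trophectoderm and the extraembryonic endoderm, which surround the pluripotent epiblast and feed it. Many of the 40 genes belong to this machinery. There were 3 genes of amino acid transport (SLC3A1, SLC7A9 and SLC7A4), 7 of other membrane transport (SLC28A3, SLC9A3, SLC51A, SLC19A3, SLC26A1, ABCC2 and AQP3), 3 V-ATPase subunits (ATP6V0D2, ATP6V0A4 and ATP6V1B1), 5 apical scaffold and membrane proteins (PDZK1, NHERF4, PROM2, PRSS8 and EPS8L2) and 10 genes of junctions, vesicle traffic or other proteins (PKP3, ILDR1, RAB25, KLC3, BICDL2, DENND2D, PLEK2, BSPRY, LYPD6B and TMEM125). The rest were transcription factors (EOMES, TBX20 and CREB3L3 among them), 4 receptors or channels (GABRE, GPR160, EPOR and KLB), 2 enzymes (GPX2 and F10) and 2 genes without a symbol. Genes whose symbol begins with SLC were 8 of the 38 named members, or 21.1%, beside 338 genes or 2.39% of all named genes of the table; this is a description of a list chosen by level.

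The starts of the members were read from the RefSeq annotation of Sscrofa11.1, as the outermost start of a gene's coding transcripts, which placed 37 of the 40 genes. The 250 bases before the start are shown for 3 members with few CpG dinucleotides, RAB25, ATP6V0D2 and PDZK1, and for the 2 with the highest CpG ratio, BSPRY and KLC3. These 5 were chosen after their sequences were seen, to show the range of CpG content described further on. Each sequence is on the strand of its gene, with every CpG in capitals.
RAB25 (chr4:93970743-93970992, minus strand): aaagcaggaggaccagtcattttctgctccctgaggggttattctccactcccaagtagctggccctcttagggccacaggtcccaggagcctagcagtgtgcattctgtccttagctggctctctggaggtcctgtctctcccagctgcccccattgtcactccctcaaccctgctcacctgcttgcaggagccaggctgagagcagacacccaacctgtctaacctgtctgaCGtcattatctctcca
ATP6V0D2 (chr4:50749374-50749623, minus strand): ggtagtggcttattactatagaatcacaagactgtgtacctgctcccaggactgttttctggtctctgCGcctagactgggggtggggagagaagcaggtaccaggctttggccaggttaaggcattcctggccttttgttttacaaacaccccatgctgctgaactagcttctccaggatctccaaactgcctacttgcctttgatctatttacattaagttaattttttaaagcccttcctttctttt
PDZK1 (chr4:99624835-99625084, plus strand): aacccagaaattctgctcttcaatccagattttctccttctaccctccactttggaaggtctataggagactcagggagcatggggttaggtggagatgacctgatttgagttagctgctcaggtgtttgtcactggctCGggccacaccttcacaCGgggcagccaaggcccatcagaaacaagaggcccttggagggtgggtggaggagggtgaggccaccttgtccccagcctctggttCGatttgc
BSPRY (chr1:253975729-253975978, plus strand): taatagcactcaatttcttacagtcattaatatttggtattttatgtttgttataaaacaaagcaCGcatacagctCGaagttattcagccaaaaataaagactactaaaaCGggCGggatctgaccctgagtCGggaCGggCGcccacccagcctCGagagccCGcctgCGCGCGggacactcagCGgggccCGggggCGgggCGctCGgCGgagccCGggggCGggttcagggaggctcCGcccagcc
KLC3 (chr6:51727641-51727890, plus strand): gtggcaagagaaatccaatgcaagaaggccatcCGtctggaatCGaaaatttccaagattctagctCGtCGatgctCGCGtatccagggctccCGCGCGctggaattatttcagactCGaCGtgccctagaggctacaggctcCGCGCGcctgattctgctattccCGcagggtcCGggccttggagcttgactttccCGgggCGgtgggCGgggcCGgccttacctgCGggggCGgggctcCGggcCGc

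The normalized counts of the 40 genes summed to 24725 and 35717 in pESCLC-primary, 57430.5 and 52294 in pESCLC-F, and 11624 and 4518 in Lv-piPSC-F. In the 8 samples in FLB2i and FL6i the sum lay between 83.8 and 220.1. As a share of all normalized counts this was 0.141% to 0.281% in the 4 embryo-derived samples in F, 0.0607% and 0.0220% in Lv-piPSC-F, and 0.000474% to 0.00136% elsewhere. The sum was thus highest in pESCLC-F, lower in the outgrowths and lowest among the F groups in the lentiviral cells. SLC28A3 supplied much of the embryo-derived sum, which without it was 21112 and 26070.4 in pESCLC-primary and 36198 and 30583 in pESCLC-F.

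Among the 320 values of the 40 genes in FLB2i and FL6i, 83 were 0, 200 were of 3 reads or fewer and 9 reached 15. The highest was RAB25 at 27.7 in the first pESCLC-FLB2i sample, where PRSS8 and EPS8L2 also passed 15. GABRE, ATP6V0A4 and NHERF4 passed it in the second pESCLC-FL6i sample, the shallowest library, and TMEM125, KLC3 and GPR160 in the second Epi-piPSC-FL6i sample. No member passed 15 in Epi-piPSC-FLB2i. For 30 of the 40 genes all 6 F samples lay above all 8 others, a count that the rule itself favours; 4.02% of all 16028 genes tested did so. With the 4 embryo-derived F samples alone the count was 39, beside 11.5% of all genes, and the exception was ATP6V0A4. The members just inside the minimum of 40 were F10, DENND2D and ILDR1, with a lowest F group mean of 40.4, 41.5 and 43.1. TRPV6, DERL3 and EPS8L1 lay just outside it at 39.5, 38.5 and 36.3. Just inside the maximum of 15 were RAB25, PRSS8 and KLC3, at 14.8, 14.8 and 14.3, and just outside were PGLYRP4, VIL1 and SH2D3A, at 15.3, 15.5 and 15.8.

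**Figure D1:**
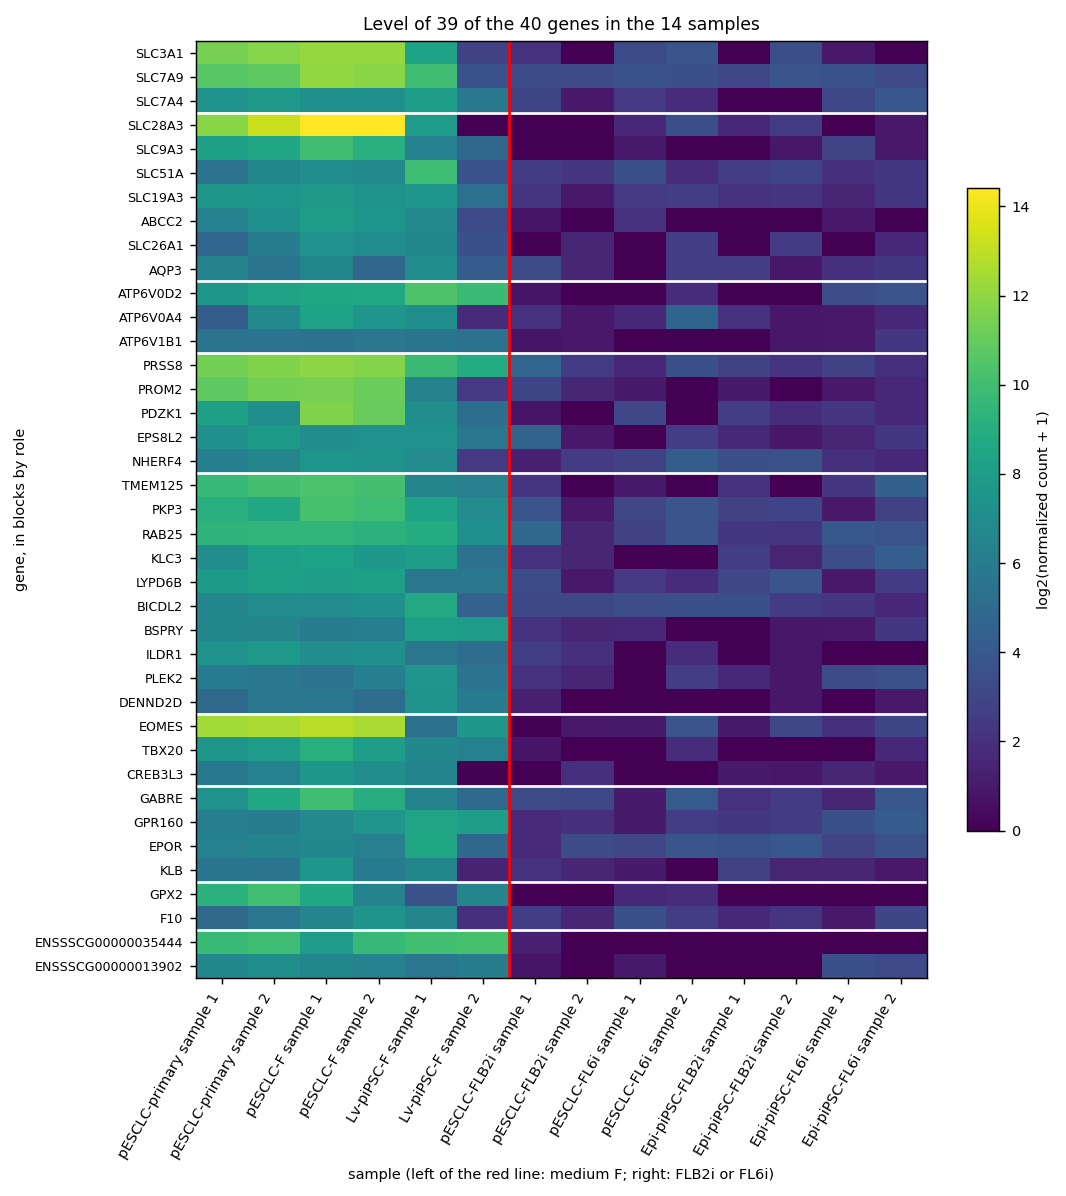
Level of 39 of the 40 genes (rows, in blocks by role) in each of the 14 samples (columns), as the colour of log2(normalized count + 1). The 4 embryo-derived samples in F hold no gene below 15, the second Lv-piPSC-F sample is dark for 12 of them below a normalized count of 15, and the 8 samples right of the red line do not exceed 27.7.

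The second Lv-piPSC-F sample stood apart from the other F samples. A normalized count of 40 was reached by 35 and 40 of the 40 genes in the 2 pESCLC-primary samples, by 39 and 38 in pESCLC-F and by 38 in the first Lv-piPSC-F sample, but by 19 in the second. Below 15 there were 13 members in the second Lv-piPSC-F sample, 1 in the first (GPX2) and 0 in the 4 embryo-derived F samples. The rule used group means, and 17 genes reached 40 in both Lv-piPSC-F samples. Of the 40 genes, 35 were higher in the first Lv-piPSC-F sample, and 15, or 37.5% of the 40, were at least 8-fold higher on values with 1 added. Over all 11920 genes with a mean of at least 40 in Lv-piPSC-F the share was 3.20%. The median of the members was 148 in the first and 37.1 in the second sample, and the genes beside them were not matched for level. Between the duplicates of pESCLC-primary and of pESCLC-F 0 members differed by that much, beside 0.251% and 0.329% of all genes for the same direction. Of the 7 genes of other membrane transport 0 were at 40 or above in the second sample, and of the 10 junction and traffic genes 8 were, as were both genes without a symbol; the roles were assigned here and were not compared by a test. The second sample was the deepest library, in which a count of 0 allows up to 3 reads or 1.04 normalized counts.

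Lists of marker genes were set beside this difference. The summed pluripotency markers were 50094 in the first and 60399 in the second Lv-piPSC-F sample, the trophectoderm markers 94996 and 80327, and the extraembryonic endoderm markers 20169 and 19420. A sum can rest on a few abundant genes. Of 17 trophectoderm genes 13 reached 40 in the first sample and 8 in the second, where DLX3, IFNG and HAND1 were at 0. The counts were 10 and 9 of 15 for pluripotency and 7 and 7 of 20 for extraembryonic endoderm. Markers of fibroblasts and extracellular matrix were higher in the second sample, at 22618 and 56625; their part in the difference between the samples was not tested. With the first Lv-piPSC-F sample left out the rule would have found 23 genes, of which 19 are among the 40, and with the second left out 43 genes, of which 38 are among the 40.

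**Figure D2:**
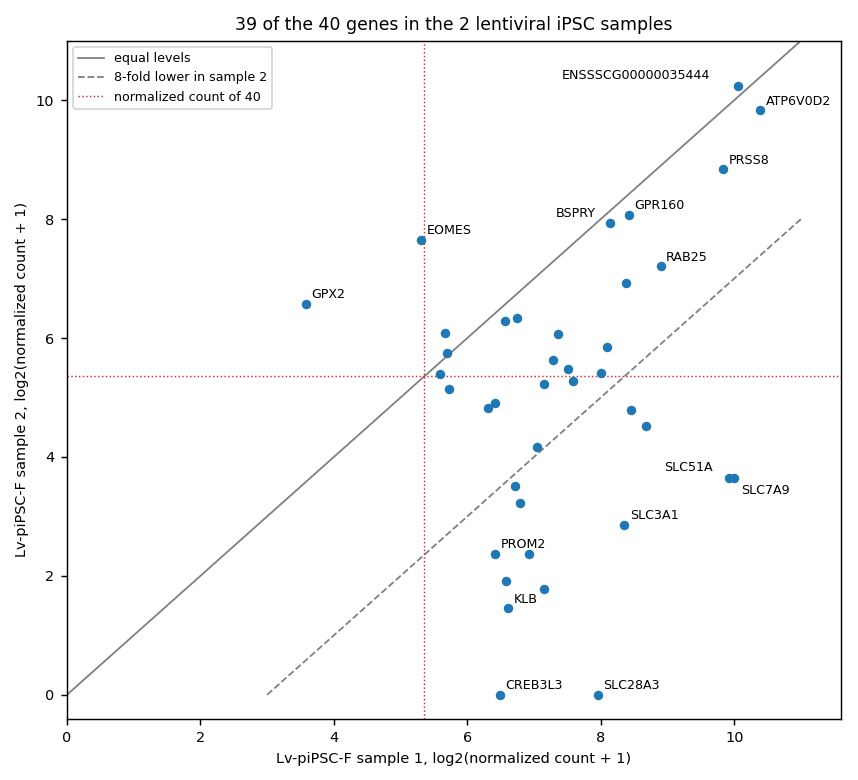
Of the 40 genes, 39 are shown in the first (horizontal) and second (vertical) Lv-piPSC-F sample, both as log2(normalized count + 1), with lines of equal level and of an 8-fold lower level in the second sample. Of the 39 points, 34 lie below the line of equal levels, and SLC28A3 and CREB3L3 sit at the bottom edge with 0 reads in the second sample.

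Differences among the 3 F groups were not what the rule compared, apart from the minimum of 40 that each group mean had to reach. They were tested with limma on log2(normalized count + 1), 2 samples against 2. The genes of the whole table, given beside the members, had no such minimum, and a member could meet it through 1 sample of a group. The shares of members and of all genes are therefore not matched. Between pESCLC-F and pESCLC-primary 3 of the 40 genes were higher in pESCLC-F (PDZK1, PKP3 and SLC7A9) and 0 were lower, at an adjusted p of at most 0.05. Of all 13977 genes 3.19% were called, 1.44% as higher and 1.75% as lower. At an unadjusted p under 0.05 there were 15 members, edgeR called 3, DESeq2 8 and a joint fit of the 14 samples 0. The median difference over the 40 genes was 0.37 on the log2 scale, beside 0.02 over all genes. Between Lv-piPSC-F and pESCLC-primary 3 genes were higher in Lv-piPSC-F (ATP6V0D2, GPR160 and BSPRY) and 8 lower (PROM2, EOMES, GPX2, TMEM125, SLC9A3, LYPD6B, PRSS8 and ILDR1). The members called higher and lower were 7.5% and 20% of the 40, beside 18.3% and 18.6% of 14375 genes, of which 36.9% were called in all. Between Lv-piPSC-F and pESCLC-F 2 genes were higher (ATP6V0D2 and BSPRY) and 13 lower, or 5.0% and 32.5%, beside 20% and 20.5% of 14239 genes, of which 40.5% were called in all. The share of members called lower thus exceeded the background in the comparison with pESCLC-F, while the share called higher was below it in both. The median standard error of the members was 0.79 from pESCLC-primary and 0.82 from pESCLC-F, beside 0.31 over all genes in each. A difference of the same size was thus less readily called for a member, and the part of this in the shares was not tested. The median difference over the 40 genes was -1.18 from pESCLC-primary and -2.03 from pESCLC-F, beside -0.03 and -0.02 over all genes. The comparisons share groups, so that their counts are not independent of each other.

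Single libraries decided many of these calls. Without the second Lv-piPSC-F sample the comparison with pESCLC-primary called 9 genes higher and 12 lower, and that with pESCLC-F 9 higher and 15 lower; without the first it called 3 higher and 31 lower, and 2 higher and 30 lower. Without the second sample the median difference of the 40 genes was 0.03 from pESCLC-primary and -0.47 from pESCLC-F. Without 1 of the pESCLC-primary samples the comparison with Lv-piPSC-F called 0 genes of the whole table, and without 1 of the pESCLC-F samples 0 members. In fits with 1 sample in a group the lone sample is assumed to vary like the other group. The called members kept their direction in every alternative that was run.

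**Figure D3:**
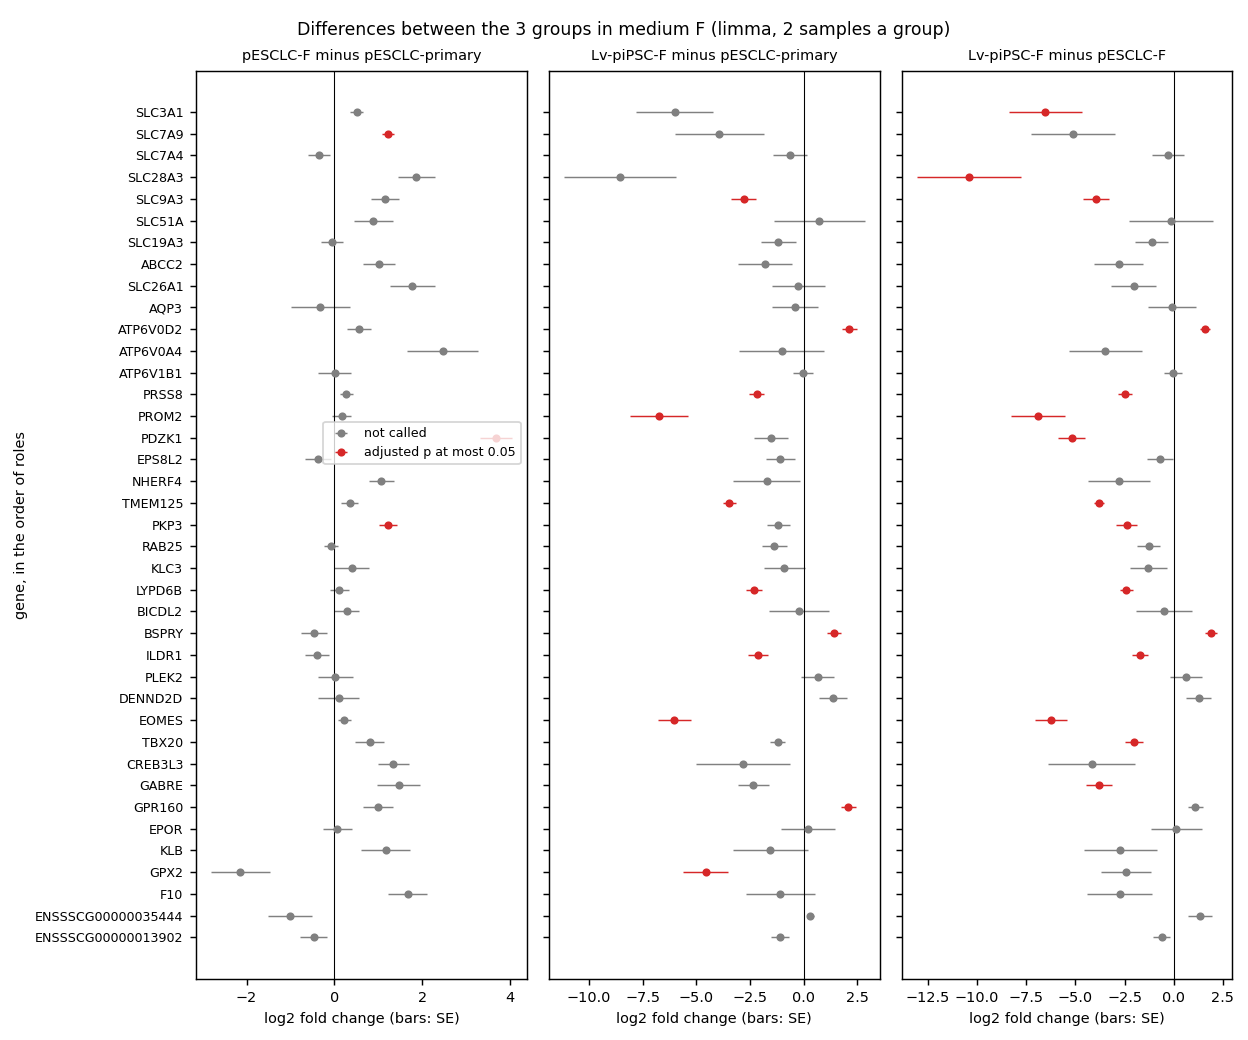
Log2 fold change with its standard error for 39 of the 40 genes (rows, by role) in the 3 comparisons between groups in F, with 2 samples a group, called genes in red. In the left panel 3 genes are red and all lie right of 0, and in the other panels 3 and 2 red genes lie right of 0 and 8 and 13 left of it.

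SLC3A1 and SLC7A9 encode the heavy and the light subunit of 1 carrier, which takes up cystine and dibasic amino acids at the apical face of kidney and gut epithelium. SLC3A1 (chr3:96157387-96201057) held 2812 and 3524 normalized counts in pESCLC-primary, 4423 and 4528 in pESCLC-F and 326 and 6.27 in Lv-piPSC-F, and 0 to 13.1 elsewhere. SLC7A9 (chr6:42664795-42706113) held 1649.6 and 1799 in pESCLC-primary, 4357 and 3661 in pESCLC-F and 1024 and 11.5 in Lv-piPSC-F, and 7.24 to 12.9 elsewhere. Both subunits were thus high in the embryo-derived cells in F, lower in the first lentiviral sample, and within the range of the FLB2i and FL6i samples in the second. SLC7A9 was higher in pESCLC-F than in pESCLC-primary (log2 difference 1.21 ± 0.14 (SE), adjusted p = 0.0159); without the first pESCLC-primary sample it missed the threshold. SLC3A1 was lower in Lv-piPSC-F than in pESCLC-F (log2 difference -6.52 ± 1.84 (SE), adjusted p = 0.0492), a call that edgeR did not make. SLC7A4, a relative of the cationic amino acid transporters, was more even, at 171 and 218 in the outgrowths, 149.7 and 151 in pESCLC-F and 272 and 56.4 in the lentiviral cells.

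SLC28A3 (chr10:30663060-30730766), a sodium-coupled nucleoside transporter, was the most abundant of the 40 genes in pESCLC-F also per kilobase of exon. It held 3613 and 9646 normalized counts in pESCLC-primary, 21232 and 21711 in pESCLC-F, 246 and 0 in Lv-piPSC-F and 0 to 10.5 in the other 8 samples. Every embryo-derived sample in F lay far above both lentiviral ones, the second of which had 0 reads. The log2 difference between Lv-piPSC-F and pESCLC-F was -10.41 ± 2.66 (SE), adjusted p = 0.0383; its size depends on the 1 added to each value, and neither edgeR nor DESeq2 called it. SLC9A3, the apical sodium-proton exchanger, held 303 and 354 in pESCLC-primary, 1006 and 523 in pESCLC-F and 78.1 and 27.2 in Lv-piPSC-F, and its Lv-piPSC-F samples lay below all 4 embryo-derived ones (log2 difference from pESCLC-F -3.94 ± 0.65 (SE), adjusted p = 0.0135; from pESCLC-primary -2.80 ± 0.60 (SE), adjusted p = 0.0246).

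The other transport genes were lower in level and set the first lentiviral sample apart from the second. SLC51A, a subunit of the basolateral bile acid and steroid carrier, held 43.3 and 97.3 in pESCLC-primary, 133 and 109 in pESCLC-F and 969 and 11.5 in Lv-piPSC-F, so that 1 lentiviral sample was the highest and the other the lowest of the 6. ABCC2, an apical pump for conjugated compounds, held 81.6 and 149, 264 and 190.2 and 110.0 and 8.36 in the same groups, and SLC26A1, an anion exchanger that carries sulfate, 24.6 and 66.7, 156 and 128 and 105 and 10.4. For both, the second Lv-piPSC-F sample was the lowest of the 6 and the highest values were those of pESCLC-F. SLC19A3, a thiamine transporter, was nearly level in 5 of the F samples, at 199 and 190.2, 215 and 164 and 191 and 37.6. AQP3, a channel for water and glycerol, held 87.5 and 45.9, 96.3 and 26.3 and 131 and 17.1, with overlapping groups. None of these 5 genes passed the test in any of the 3 comparisons.

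The V-ATPase acidifies organelles and, in some epithelia, the space outside the cell, and the isoforms found here are known from kidney and other proton-secreting cells. ATP6V0D2 (chr4:50694188-50749373) held 199.7 and 314 normalized counts in pESCLC-primary, 360.1 and 379 in pESCLC-F and 1339 and 909.7 in Lv-piPSC-F, and 0 to 12 elsewhere. Unlike most members it was highest in the lentiviral cells, in both samples (log2 difference from pESCLC-primary 2.14 ± 0.33 (SE), adjusted p = 0.0121; from pESCLC-F 1.58 ± 0.25 (SE), adjusted p = 0.0123). ATP6V1B1 was nearly level across F, at 46.2 and 43.7, 39.8 and 51.6 and 47.3 and 41.1. ATP6V0A4 held 17.7 and 107, 333 and 184 and 141 and 2.44; its low samples in pESCLC-primary and Lv-piPSC-F fell within the 0.922 to 23.6 of the FLB2i and FL6i samples, and it passed no test.

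PDZK1 and NHERF4 carry PDZ domains and hold transporters at the apical membrane. PDZK1 (chr4:99625085-99657170) held 296 and 144 normalized counts in pESCLC-primary, 3250.0 and 2169 in pESCLC-F, 141 and 36.6 in Lv-piPSC-F and 0 to 7.34 elsewhere. It had the largest difference of the 40 genes between pESCLC-F and pESCLC-primary (log2 3.68 ± 0.36 (SE), adjusted p = 0.0122), and was lower in Lv-piPSC-F than in pESCLC-F (log2 -5.19 ± 0.70 (SE), adjusted p = 0.00889). The pESCLC-F samples stood far above the rest, and the lower outgrowth lay close to the higher lentiviral sample. NHERF4 held 73.8 and 91.8 in the outgrowths, 189 and 159 in pESCLC-F and 121 and 4.18 in the lentiviral cells, and passed no test.

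PRSS8, or prostasin, is a membrane-anchored protease that activates epithelial sodium channels, and PROM2 is a prominin of membrane protrusions. PRSS8 held 2696 and 3247 in pESCLC-primary, 3759.7 and 3405 in pESCLC-F and 913 and 458 in Lv-piPSC-F, and 2.1 to 24.6 elsewhere. PROM2 held 1833 and 2695, 2766 and 2239 and 84.7 and 4.18, and 0 to 6.92 elsewhere. Both genes were called lower in Lv-piPSC-F than in either embryo-derived group, but PRSS8 stayed far above the inhibitor media in both lentiviral samples and PROM2 in the first one only. The log2 differences from pESCLC-F were -2.47 ± 0.36 (SE), adjusted p = 0.0103 for PRSS8 and -6.88 ± 1.38 (SE), adjusted p = 0.0211 for PROM2. EPS8L2, an actin regulator of the EPS8 family, held 151 and 228, 134 and 154 and 155 and 48.7 and passed no test.

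Of the junction and traffic genes most stayed on in both lentiviral samples. RAB25, a small GTPase of apical recycling vesicles found in epithelia, held 649 and 714 normalized counts in pESCLC-primary, 688 and 603 in pESCLC-F and 476 and 147 in Lv-piPSC-F. PKP3, a plakophilin of desmosomes, held 524 and 395, 1169 and 963 and 332 and 120.5. RAB25 passed no test, and PKP3 was highest in pESCLC-F, where it exceeded both pESCLC-primary (log2 difference 1.22 ± 0.20 (SE), adjusted p = 0.0369) and Lv-piPSC-F (log2 Lv-piPSC-F minus pESCLC-F -2.40 ± 0.53 (SE), adjusted p = 0.0267). The first of these calls was lost without either pESCLC-primary sample or without the first pESCLC-F sample.

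ILDR1, an angulin of tricellular junctions, held 159 and 219.7, 135 and 148 and 51.7 and 34.5 in the 3 F groups and was lower in Lv-piPSC-F than in pESCLC-primary (log2 -2.12 ± 0.45 (SE), adjusted p = 0.0247). TMEM125, a membrane protein, held 792 and 1129, 1272 and 1137 and 93.5 and 76.6 and differed most clearly from the embryo-derived groups (log2 Lv-piPSC-F minus pESCLC-F -3.81 ± 0.25 (SE), adjusted p = 0.00355). LYPD6B, of the LY6 family, held 232 and 287, 267 and 291 and 50.6 and 52.6. In all 3 genes the lentiviral duplicates lay close together and below all 4 embryo-derived samples. BSPRY, with a B-box and a SPRY domain, went the other way, at 101 and 92.9, 67.0 and 72.8 and 279 and 244, and was higher in Lv-piPSC-F than in pESCLC-primary (log2 1.42 ± 0.32 (SE), adjusted p = 0.0273) and than in pESCLC-F (log2 1.89 ± 0.33 (SE), adjusted p = 0.0147). DENND2D, a DENN domain protein of Rab GTPase activation, also had both lentiviral samples on top, at 30.5 and 52.5, 53.4 and 34.4 and 163 and 66.1, but passed no test. BICDL2, an adaptor of the dynein motor, held 101 and 125, 124 and 152 and 407 and 21.9, KLC3, a kinesin light chain, 139.7 and 275, 326 and 203 and 256 and 41.8, and PLEK2, a pleckstrin, 59.0 and 53.6, 44.0 and 73.8 and 180.4 and 43.5. All 3 were lowest in the second lentiviral sample and passed no test.

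Among the transcription factors, EOMES was by far the most abundant. EOMES (chr13:14209590-14216184) is a T-box factor of trophoblast and of early mesoderm and endoderm, and the member that stands in the fixed trophectoderm and mesoderm lists. It held 5381 and 6221 normalized counts in pESCLC-primary, 7398 and 6197 in pESCLC-F and 38.5 and 201 in Lv-piPSC-F, and 0 to 13.1 elsewhere. The embryo-derived samples in F were tightly grouped and far above both lentiviral samples (log2 difference of Lv-piPSC-F from pESCLC-primary -6.02 ± 0.78 (SE), adjusted p = 0.00873; from pESCLC-F -6.25 ± 0.80 (SE), adjusted p = 0.00819). EOMES was 1 of the 5 members higher in the second lentiviral sample than in the first. TBX20, a T-box factor of the developing heart, held 196 and 235, 518 and 271 and 107 and 79.4, and was lower in Lv-piPSC-F than in pESCLC-F (log2 -2.01 ± 0.44 (SE), adjusted p = 0.0263).

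CREB3L3, a transcription factor of liver and gut, is bound to the endoplasmic reticulum until it is cleaved. It held 56.1 and 78.7 in pESCLC-primary, 208 and 139 in pESCLC-F and 89.1 and 0 in Lv-piPSC-F, and 0 to 2.96 elsewhere. The lentiviral group met the minimum of 40 through its first sample alone, and the second held 0 reads. The gene passed no test between the F groups.

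Among the receptors, GPR160, a G protein-coupled receptor, held 71.8 and 68.9 normalized counts in pESCLC-primary, 109.9 and 180.0 in pESCLC-F and 341 and 269 in Lv-piPSC-F, and was higher in Lv-piPSC-F than in pESCLC-primary (log2 2.09 ± 0.34 (SE), adjusted p = 0.0133). Its difference from pESCLC-F did not pass (log2 1.10 ± 0.37 (SE), adjusted p = 0.0768). EPOR, the erythropoietin receptor, held 78.7 and 90.7, 104 and 75.9 and 349 and 26.8, with the first lentiviral sample highest and the second lowest of the 6. KLB, or beta-Klotho, which lets FGF receptors respond to endocrine FGFs, held 48.2 and 45.9, 187 and 60.7 and 96.8 and 1.74. GABRE, a subunit of GABA-gated channels, held 161 and 402, 995 and 496 and 84.7 and 28.9 and was lower in Lv-piPSC-F than in pESCLC-F (log2 -3.80 ± 0.67 (SE), adjusted p = 0.0155).

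GPX2, a glutathione peroxidase of gut epithelium, held 619 and 1037 in pESCLC-primary, 385 and 85.0 in pESCLC-F and 11 and 94.3 in Lv-piPSC-F, and 0 to 2.62 elsewhere. The outgrowths lay above both other groups, and the difference passed for Lv-piPSC-F (log2 -4.57 ± 1.04 (SE), adjusted p = 0.0289) and not for pESCLC-F (log2 -2.14 ± 0.67 (SE), adjusted p = 0.147). F10, coagulation factor X, held 30.5 and 50.3, 94.2 and 172 and 94.6 and 2.79. The 2 genes without a symbol were ENSSSCG00000035444, at 857 and 967, 249 and 811 and 1067 and 1209 and 0 to 1.54 elsewhere, and ENSSSCG00000013902, at 106 and 144, 96.3 and 81.9 and 49.5 and 66.5 and 0 to 10.6 elsewhere. For both, all 6 F samples lay above the 8 others, and neither passed a test within F.

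The place of each lentiviral sample beside the embryo-derived ones was counted over the members and over all genes. The first lay above all 4 embryo-derived F samples for 12 of the 40 genes and below all of them for 17, or 30% and 42.5%, beside 38.3% and 38.7% of all genes. The second lay above them for 5 genes and below them for 33, or 12.5% and 82.5%, beside 39.4% and 37.6%. ATP6V0D2, BSPRY, DENND2D, GPR160 and ENSSSCG00000035444 were the 5 genes above the embryo-derived samples in both.

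Lists of marker and pathway genes were examined in the contrast of the 3 F groups with the 4 groups in FLB2i and FL6i, in 1 limma fit over the 14 samples with the 40 genes left out. In this contrast 50.7% of 16028 genes were called, 25.9% higher and 24.7% lower in F, and the median difference was 0.02 over all genes on the log2 scale. Extraembryonic endoderm markers were higher in F for 17 of 20 genes and lower for 0, led by the transcription factors GATA4 (log2 7.57 ± 0.66 (SE), adjusted p = 8.84e-06) and HNF4A (log2 7.0 ± 0.33 (SE), adjusted p = 2.61e-07). Their median difference was 3.47. GATA4 held 6692 and 8623 in pESCLC-primary and 10841 and 7679.9 in pESCLC-F but 8.80 and 0 in Lv-piPSC-F, and HNF4A 7811 and 8335, 15090.0 and 13369 and 1.10 and 0. The higher level of these factors was thus that of the embryo-derived groups. Summed over the 20 markers the level was 142676 to 200534 in pESCLC-primary, 302691 to 357943 in pESCLC-F, 19419.5 to 20169 in Lv-piPSC-F and 9945 to 62223 in the inhibitor media; 7 of the 20 reached 40 in each Lv-piPSC-F sample, and FOXA2, AFP and APOA2 were among those at 0 in the first and GATA4, HNF4A, AFP, CUBN and TF in the second. The part of these marker levels in the levels of the 40 genes was not tested.

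Trophectoderm markers were higher in F for 9 of 15 genes and lower for 1. KRT18 and KRT8, keratins of simple epithelia, led the list (log2 8.21 ± 0.33 (SE), adjusted p = 1.46e-07 and log2 7.17 ± 0.36 (SE), adjusted p = 4.05e-07). KRT8 held 44803 to 335906 in the 6 F samples and 77.8 to 9447 in the 8 others, so that the keratins were high in both lentiviral samples as well. TFAP2A, a factor of trophectoderm and of surface ectoderm, was the gene lower in F (log2 -1.84 ± 0.34 (SE), adjusted p = 0.00114). The summed level of the list was 349852 to 406910.1 in pESCLC-primary, 473295 to 491082 in pESCLC-F, 80327 to 94996 in Lv-piPSC-F and 909 to 14543 elsewhere, with EOMES counted. The F groups did not overlap and had the same order as for the summed members. So did the sums of the extraembryonic endoderm list and of the fibroblast and extracellular matrix list, the latter at 339243 to 412826 in pESCLC-primary, 440679 to 468236 in pESCLC-F, 22618 to 56625 in Lv-piPSC-F and 44733 to 385588 elsewhere. The order was not limited to lists of cell types. The TGFB and activin signaling list had it too, at 29303 to 29430, 30594 to 45888 and 13024 to 19952 in the same groups and 11716 to 20979 elsewhere. The part of these lists in the members' levels was not tested.

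Pluripotency markers were higher in F for 10 of 15 genes and lower for 0, led by OTX2 (log2 7.55 ± 0.38 (SE), adjusted p = 3.65e-07) and TBX3 (log2 6.11 ± 0.69 (SE), adjusted p = 4.91e-05); NANOG was among them (log2 4.87 ± 0.29 (SE), adjusted p = 8.25e-07). With edgeR 8 were higher and 1 lower, and with DESeq2 9 and 2. With Lv-piPSC-F left out 6 of 12 were higher and 2 lower, so that the count depended on the lentiviral samples. The summed list was 15521 to 16934 in pESCLC-primary, 16129.6 to 18955 in pESCLC-F and 50094 to 60399 in Lv-piPSC-F. In inhibitor media it was 1268 to 2187 in pESCLC-FLB2i, 1998 to 2421 in pESCLC-FL6i, 5214 to 5715 in Epi-piPSC-FLB2i and 33644 to 39218 in Epi-piPSC-FL6i. Epi-piPSC-FL6i thus lay above both embryo-derived F groups. The list includes LIN28A, whose human form was carried by the episomal plasmids. The paper also reports expression of ectopic human reprogramming genes in the lentiviral cells. The part of vector reads in these sums, those of Lv-piPSC-F included, was not tested. Mesoderm markers were higher for 5 of 14 and lower for 1, with MIXL1 (log2 4.46 ± 0.26 (SE), adjusted p = 8.45e-07) and TBXT (log2 3.07 ± 0.49 (SE), adjusted p = 0.000465) leading and MESP1 lower (log2 -2.61 ± 0.45 (SE), adjusted p = 0.000819). MIXL1 was at 0 in both Lv-piPSC-F samples, and TBXT held 174 and 28.4 in pESCLC-primary and 2.09 and 1.01 in pESCLC-F, so that neither was a feature of all F groups. Ectoderm markers went the other way, with 2 of 10 higher and 7 lower in F. Among those lower were the neural factors ZIC1 (log2 -8.22 ± 0.61 (SE), adjusted p = 3.25e-06) and PAX6 (log2 -6.02 ± 0.62 (SE), adjusted p = 2.59e-05), while OTX1 (log2 2.35 ± 0.52 (SE), adjusted p = 0.0037) and ZIC2 (log2 2.19 ± 0.20 (SE), adjusted p = 1.14e-05) were higher. With the embryo-derived lines alone, without the outgrowths, 0 of 9 ectoderm genes were higher and 6 lower. With Lv-piPSC-F left out 1 of 10 was higher and 7 lower, and OTX1 was at 0 in the first pESCLC-F sample. The count of ectoderm genes higher in F thus depended on the lentiviral samples. Of 20 fibroblast and extracellular matrix genes, 2 were higher, FN1 and FBLN1 (log2 2.81 ± 0.55 (SE), adjusted p = 0.00167 and 0.80 ± 0.11 (SE), adjusted p = 0.000151), and 4 lower, with LOX and VIM in front (log2 -3.31 ± 0.41 (SE), adjusted p = 8.88e-05 and -2.21 ± 0.19 (SE), adjusted p = 8.94e-06). Some of these counts moved with single samples. The fibroblast genes lower in F were 9 without the first pESCLC-FL6i sample, 8 without the second Lv-piPSC-F sample, 6 without the first pESCLC-FLB2i sample and 2 without the second pESCLC-primary sample, and those higher were 4 without the second pESCLC-FL6i sample. Mesoderm genes higher in F were 3 without either pESCLC-primary sample.

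Signaling genes were mixed. In the TGFB and activin list 10 of 23 genes were higher in F and 3 lower. The ligand NODAL and its inhibitor LEFTY2 led (log2 7.01 ± 0.51 (SE), adjusted p = 2.99e-06 and log2 7.03 ± 1.16 (SE), adjusted p = 0.000582), and the activin subunit INHBB and TGFB2 were lower (log2 -2.95 ± 0.55 (SE), adjusted p = 0.00132 and log2 -2.78 ± 0.45 (SE), adjusted p = 0.000523). NODAL held 3856 and 4372 in pESCLC-primary, 9532 and 4677 in pESCLC-F and 45.1 and 260.1 in Lv-piPSC-F, beside 350 and 604 in Epi-piPSC-FL6i, so that both lentiviral samples were below an inhibitor group. In the BMP list 12 of 23 were higher, with BMP2 (log2 5.70 ± 0.49 (SE), adjusted p = 8.15e-06) and BMP7 (log2 3.07 ± 0.53 (SE), adjusted p = 0.000818) in front, and 5 lower, with the signal transducer SMAD9 (log2 -3.42 ± 0.40 (SE), adjusted p = 5.72e-05) and the target MSX1 (log2 -2.76 ± 0.37 (SE), adjusted p = 0.00014). The summed BMP list was 35355 to 36084 in pESCLC-primary, 34765 to 38000 in pESCLC-F, 8681 to 10286 in Lv-piPSC-F and 9408 to 35573 elsewhere. Its level in Lv-piPSC-F was thus below both embryo-derived F groups and near the lowest of the inhibitor media. Among the FGF and ERK genes 10 of 21 were higher and 1 lower. FGFR4, the receptor that pairs with beta-Klotho, had the largest difference (log2 4.48 ± 0.24 (SE), adjusted p = 5.49e-07), at 635 to 1233 in F and 9.23 to 342 elsewhere, followed by ETV4 (log2 3.00 ± 0.31 (SE), adjusted p = 2.47e-05), and ETV1 was lower (log2 -1.42 ± 0.18 (SE), adjusted p = 0.000105). FGFR4 was therefore high in both lentiviral samples, while KLB was at 96.8 and 1.74. WNT targets were split, 4 of 12 higher and 3 lower, with DKK1 and TBXT on 1 side (log2 3.45 ± 0.85 (SE), adjusted p = 0.00647 for DKK1) and NKD1 and AXIN2 on the other (log2 -3.49 ± 0.39 (SE), adjusted p = 4.24e-05 and -2.98 ± 0.25 (SE), adjusted p = 7.51e-06). Their sum was 5534 to 6871 in pESCLC-primary, 3785 to 3974 in pESCLC-F, 932 to 1025 in Lv-piPSC-F and 1707 to 7217 elsewhere. Both lentiviral samples thus lay below every sample in the inhibitor media. With the embryo-derived lines alone, without the outgrowths, 1 of 11 WNT targets was higher in F and 3 lower. In that fit 8 of 23 BMP genes were higher and 3 lower, and 7 of 21 FGF and ERK genes were higher and 1 lower. The TGFB and activin list kept 10 of 23 higher and 3 lower.

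**Figure D4:**
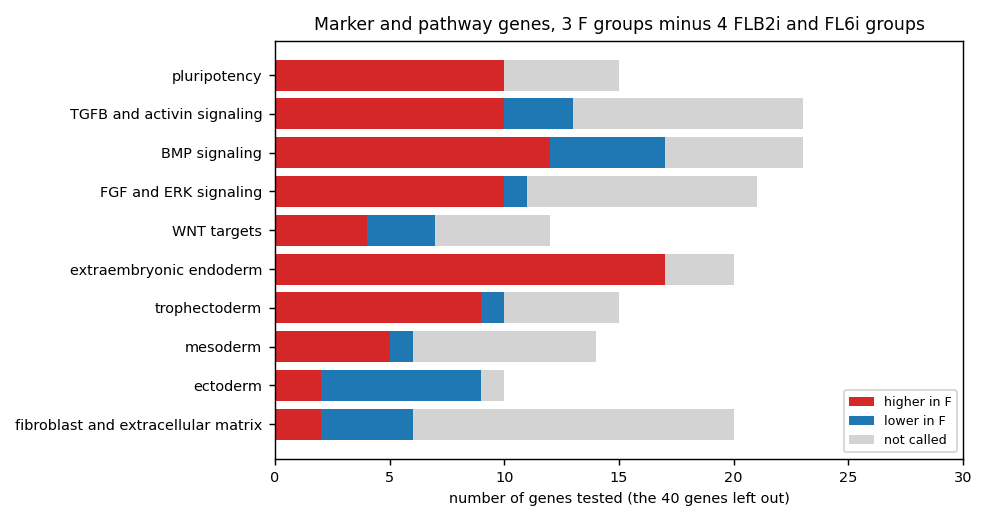
Number of genes in each list (bars, in genes) called higher in F, called lower in F or not called in the contrast of the 3 F groups with the 4 groups in FLB2i and FL6i. Extraembryonic endoderm has 17 of 20 genes higher and ectoderm 7 of 10 lower.

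The 37 placed members lay on 15 chromosomes, with at most 5 on any of them. PKP3 and EPS8L2, 212494 bases apart on chromosome 2, were the only neighbouring members within 1 Mb of each other. Their promoters, taken as 250 bases before to 50 bases after the annotated start, were poorer in CpG than those of most genes. The ratio of observed to expected CpG had a median of 0.355 over the 37 members and 0.727 over the 13113 genes of the table with a promoter, and it was below 0.6 for 25 members (67.6%) and for 36.2% of those genes. With the start of the transcript that has the longest coding sequence in place of the outermost one, the medians were 0.336 and 0.740, although 13 members and 4325 genes then had another start. GC content was similar, with medians of 59.7% and 61.3%. Among the sequences shown above, RAB25, ATP6V0D2 and PDZK1 had ratios of 0.0427, 0.0735 and 0.134, and BSPRY and KLC3 1.04 and 0.906. The lowest ratio was that of SLC3A1, with 0 CpG in 300 bases, of which 56.3% were masked as repeats.

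Low CpG content was shared with other genes. The 84 genes that were on in pESCLC-primary and pESCLC-F but below 15 in the other 5 groups had a median of 0.329 over the 62 with a promoter, with 75.8% below 0.6. The 40 genes with the mirror pattern, on in the 4 groups in FLB2i and FL6i and off in F, had a median of 0.678 over 30, with 46.7% below 0.6. Repeats covered more than 50% of the window in 6 members (16.2%) and in 6.22% of all genes. The annotated starts were not checked against reads, and these shares are descriptions.

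**Figure D5:**
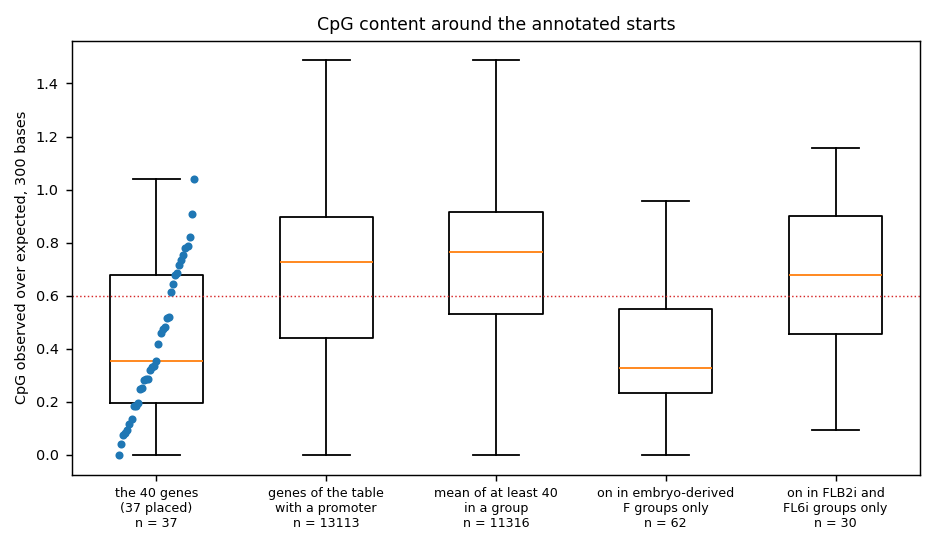
Observed over expected CpG in the 300 bases around the annotated start, as medians, quartiles and ranges for 5 sets of genes, with a dotted line at 0.6 and the 37 placed members as points. The members and the genes on in embryo-derived F groups have medians of 0.355 and 0.329, below the 0.727 of all genes.

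Short motifs were searched on both strands of the same windows and set beside their share in all 19531 promoters and in those of 13113 genes of the table, in this order. TATAAA, the core of the TATA box, was found in 7 of 37 members, EOMES and SLC3A1 among them (18.9%, beside 10.9% and 8.50%), and GATAA for GATA factors in 10 (27.0%, beside 21.1% and 17.9%). GGAATG for TEAD factors was found in 6 (16.2%, beside 11.9% and 11.14%), CAGAC for SMADs in 16 (43.2%, beside 44.9% and 44.4%) and GGGCGG, the GC box, in 19 (51.4%, beside 50.8% and 59.7%). The AP-1 letters TGANTCA were in 2 (5.41%, beside 6.03% and 5.16%) and TGACGTCA, the cyclic AMP element, in 1 (2.70%, beside 2.26% and 2.71%). A match is a run of letters and not a bound site.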

How the data were processed

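Libraries were made from polyadenylated RNA with a stranded kit and read as 50 bp pairs. According to the labels and methods, TopHat 2.1.0 placed the reads on Sscrofa11.1, HTSeq 0.8.0 counted them per gene with default parameters, and DESeq2 scaled the counts. The values deposited by the authors are these scaled counts, a signal with 1 size factor per sample and no pooling; the annotation release is not given in the sources used here. No strand option beyond the default is stated, so antisense and overlapping genes are uncertain, and reads from the mouse feeders cannot be separated from porcine ones. Multiplied back by the size factors, 100% of the values were whole within 0.001 reads (largest deviation 1.8e-09); these recovered reads served edgeR and DESeq2 only.

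Symbols were matched for 14151 of 19588 identifiers; unmatched genes of the lists were not analysed here, and some results on single genes are not reported here. Groups came from the sample labels. limma-trend was run on log2(normalized count + 1) for genes reaching 10 normalized counts in 2 or more samples of a fit, and a gene was called where its Benjamini-Hochberg adjusted p was 0.05 or less. A count of 0 was read against a floor of 3 reads, which covers counting error only. Alternatives were pseudocounts of 0.1 and 5, no filter, a minimum of 50, a log2 fold change of at least 3, edgeR, DESeq2, a joint fit of the 14 samples, a block for the replicate number, leaving out each sample and other thresholds of the rule. Added after seeing the data were leaving out Lv-piPSC-F, using embryo-derived lines alone, scaled CPM, and every sample without the second Lv-piPSC-F sample. Scripts were tested on simulated data. Tools were R 4.3.3, limma 3.58.1, edgeR 4.0.16 and DESeq2 1.42.0.

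The 40 genes, the lists and the rule for named genes were chosen with earlier results of these data known. Named were members by level (the 20 highest in F), list membership, calls (up to 5 in each direction of a comparison), nearness to the thresholds or known role, and in each list the 2 called genes with the largest difference in each direction; other genes were named after their values were seen.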

Additional observations from a re-analysis of the deposited data

How the results depend on the processing

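The number of members depended on the thresholds: 76 genes met means of at least 30 and below 20, 10 met 60 and 10, and 9 met the thresholds in every sample, or 25 without the second Lv-piPSC-F sample. CPM with the same thresholds is on another scale and gave 15 genes, 0 of them shared; scaled to the mean total it gave 36, of which 34 were shared. Leaving out 1 sample gave 23 to 46 members.

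Between pESCLC-F and pESCLC-primary the genes called were 446, and 160 with a log2 fold change of at least 3, 158 over all genes, 1274 with DESeq2, 184 in 1 fit on all 14 samples and 100 to 513 with a sample left out; the members called were 3, and 1, 8 and 0 with the fold change, DESeq2 and the 1 fit, and 2 to 5. Between Lv-piPSC-F and pESCLC-primary they were 5309 and 11, and 1218 and 4 with the fold change, 7976 genes with DESeq2, and 0 to 7314 genes and 0 to 34 members with a sample left out. Between Lv-piPSC-F and pESCLC-F they were 5760 and 15, and 1634 and 8 with the fold change, and 0 to 7292 and 0 to 32 with a sample left out. The contrast of media called 8120 genes, and 1290 with the fold change, 4376 with the embryo-derived lines alone and 7041 to 9406 with a sample left out; of the listed genes it called 105, and 40 with the fold change and 94 to 120 with a sample left out. The stricter fold lowers the counts by construction. Leaving out a sample moved them down in some fits and up in others, and the cause was not tested there or elsewhere.

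Replicate numbers did not pair the samples in most pairs of groups. Over 21 pairs the correlation of deviations ran from -0.0752 to 0.360, with 1 over 0.1. The pair at 0.360 was pESCLC-FLB2i with pESCLC-FL6i. There the first samples were both at passage 3 and the second at passages 6 and 9, so that replicate number and passage cannot be told apart. With the replicate number as a block the genes called were 551, 4549, 5302 and 7998, the members 4, 12 and 14, and the listed genes 105. Over 2871 settings of single called genes 1 reversed, TGFBR3 in the contrast of media, at -0.47 with the embryo-derived lines alone, and 308 lost the call. With 2 samples a group, values of a few reads, as in FLB2i and FL6i, limit what could be told apart.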

Other observations

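Relatives of the members, chosen after the members were known, are given as values with no test. Housekeeping partners of the V-ATPase isoforms were present everywhere: ATP6V0D1 held 514 to 1906 normalized counts in the 6 F samples and 443 to 3704 in the 8 others, and ATP6V1B2 1814 to 3584 and 2384 to 4160.2. These forms of the subunits were thus on in all 3 media, unlike ATP6V0D2 and ATP6V1B1. RAB11A, the widely expressed relative of RAB25, held 1390.4 to 2020.2 in F and 2072 to 3647 elsewhere, and SLC19A2, the other thiamine carrier, 172 to 989 and 119 to 453.

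Other relatives shared the pattern in part. SLC7A7, the light subunit of a basolateral amino acid carrier, held 2566 and 3868 in pESCLC-primary, 8348 and 5911 in pESCLC-F, 758 and 78.0 in Lv-piPSC-F and 34.1 to 129 elsewhere, again with the second lentiviral sample in the range of the inhibitor media. PKP2, a desmosomal relative of PKP3, held 1221 to 10867 and 14.8 to 1040.2, and NHERF1, a PDZ scaffold, 1232 to 6685 and 159 to 1156. PROM1, the relative of PROM2, was not higher in F, at 3.03 to 269.5 and 57.6 to 1036, and EPS8, of the family of EPS8L2, held 30.6 to 216 and 95.0 to 888.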
